A study of Mus musculus with 20 samples.

Results

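Chromatin accessibility was compared between 2 leukaemia-associated isocitrate dehydrogenase mutations in mouse blood stem and progenitor cells. The comparison took 8 of the series' 20 ATAC-seq libraries, chosen by genotype alone: 4 from Idh1LSL-R132H/+;Vav-Cre mice and 4 from Idh2LSL-R140Q/+;Vav-Cre mice. All mice were C57Bl/6J and 3 to 4 months old, and every library was a pool of 2 animals, so the spread is between pools. The cells were LSK cells (Lin-cKit+Sca1+), sorted from bone marrow after depletion of cells with lineage markers, the compartment that holds stem cells and multipotent progenitors. Both genotypes carried Vav-Cre, a recombinase driven by Vav regulatory DNA in blood cells, and 1 mutant allele at the gene's own locus behind a stop cassette that Cre removes. The other 12 libraries were 4 each of +/+;Vav-Cre (called WT here), Idh2LSL-R172K/+;Vav-Cre and Tet2-/- mice, whose label names no Cre. They enter as levels beside the pair, in comparisons of mutants with WT and in the shared estimate of spread.

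Isocitrate dehydrogenases turn isocitrate into 2-oxoglutarate, Idh1 in the cytosol and peroxisomes and Idh2 in mitochondria. The R132H and R140Q changes let the enzymes reduce 2-oxoglutarate to 2-hydroxyglutarate, which inhibits dioxygenases that need 2-oxoglutarate, among them the Tet enzymes that oxidise 5-methylcytosine and the JmjC histone demethylases. Both changes are recurrent in human acute myeloid leukaemia. In ATAC-seq a transposase cuts open DNA and adds sequencing adapters, so the count in a peak measures how open that stretch is. A lower count in a pool may come from fewer cells with the site open or from a less open site in each cell, and these cannot be told apart. Idh1 lies on chromosome 1 and Idh2 on chromosome 7, and both chromosomes are reported apart from the rest.

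Total counts in peaks ran from 17.44 to 27.89 M (M for 1e6) over the 4 Idh1 R132H libraries and from 16.76 to 27.74 M over the 4 Idh2 R140Q libraries. One library stood apart: Idh2 R140Q replicate 2, the shallowest of the 8, differed from the other 3 of its genotype with an SD of 0.306 over peaks on the log2(CPM + 0.5) scale, against 0.2 to 0.244 for the other 7. Among the other genotypes, Idh2 R172K replicate 2 (0.29) and WT replicate 3 (0.269) also lay above that range and were kept. Each of the 8 libraries was left out in turn. Results without Idh2 R140Q replicate 2 were read further after its effect on the counts was seen. Xist peaks were high (34.7 to 39.1 summed CPM) in replicates 2 and 4 of both genotypes and low (3.86 to 4.73) in replicates 1 and 3, so this split was the same in both groups. Of the 6 genes of the LSK marker list, 5 had a promoter peak, at 1.25 (Ly6a, which encodes Sca1) to 27.2 CPM (Cd34) in Idh1 R132H. Their median of 5.25 CPM over the pair lay within the medians of 8 lists for other cell types, 4.05 to 20 CPM, so promoter accessibility did not separate the LSK label from those types.

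Between Idh1 R132H and Idh2 R140Q, 51 of 123908 tested peaks were called (0.0412%) at an adjusted p under 0.05 by edgeR's quasi-likelihood test with Benjamini-Hochberg adjustment. Of these, 18 (0.0145%) were higher in Idh1 R132H and 33 (0.0266%) were lower. Chromosome 1 held 25 of the calls (0.294% of 8516 peaks) and chromosome 7 held 18 (0.247% of 7300). All other chromosomes together held 8 calls among 108092 peaks (0.0074%), and 14 of 21 chromosomes held 0. With no difference between the genotypes, a share of about 0.05 of peaks would have an unadjusted p under 0.05. On each autosome other than 1 and 7, and on chromosome X, the share with an unadjusted p under 0.05 was 5.47% to 7.09%. That share was 8.72% on chromosome 1, 7.56% on chromosome 7, 22.2% of 27 peaks on chromosome Y, 6.16% outside chromosomes 1 and 7 and 6.42% (7949 peaks) over all tested peaks. Differences were small in general: the median absolute log2 difference was 0.111, and the fifth and 95th percentiles of the signed difference were -0.36 and 0.37.

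A peak that was not called is not shown to be alike in both genotypes, so the 95% interval of each log2 difference was taken from limma voom. It lay within 1.25-fold either way for 28.8% of tested peaks, within 1.5-fold for 64.9% and within 2-fold for 92.3%. A 2-fold difference was thus outside the interval at most peaks, and a 1.25-fold difference was not. At the called peaks the absolute log2 difference had a median of 0.87, 22 of 51 were beyond 2-fold, and in 49 of 51 the libraries of the genotypes did not overlap, which was true of 3.15% of all tested peaks (4.04% on chromosome 1, 3.88% on chromosome 7 and 3.03% elsewhere). Called peaks were intergenic in 26 of 51 cases (51%, against 36% of tested peaks), intronic in 15, promoter class in 5, exonic in 3 and at a transcription end in 2.

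The promoter peaks of the targeted genes differed by little between the genotypes. At the Idh1 promoter peak, chr1:65178060-65179449, Idh1 R132H libraries held 65, 71.8, 69.7 and 77.9 CPM and Idh2 R140Q libraries 62.8, 78.6, 67.1 and 75.6 CPM. The groups overlapped, with means of 71.1 ± 5.35 and 71 ± 7.36 (SD, n = 4 each) and a 95% interval of the log2 difference from -0.13 to 0.15. At the Idh2 promoter peak, chr7:80114288-80115707, the means were 50.7 ± 2.54 and 51.8 ± 2.28 CPM (SD, n = 4 each), with an interval from -0.14 to 0.08. The deposited annotation puts both peaks in an intron, but each covers a RefSeq start site of its gene. The RefSeq gene spans reach farther upstream than the peaks, to 65186479 for Idh1 and 80118608 for Idh2. None of the 2 Idh1, 8 Idh2, 12 Vav1 or 30 Tet2 peaks was called. A peak at a promoter does not read the mutation, so these values do not check the genotype labels.

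Promoter windows were read from RefSeq (GRCm38.p6, the assembly behind mm10) for 5 genes: the 3 whose start regions lay in called peaks and had an entry, and the 2 targeted genes for comparison. Each is the 250 bases before a RefSeq start site of the gene, 5′ to 3′ on the gene's strand, and lies wholly inside its peak. Capitals mark exact matches, on either strand, to 1 of 7 short motifs. These were CCGGAAG for ETS factors, TGTGGTT for RUNX factors, TGACTCA for the AP-1 complex, TTGCGCA for CEBP factors, CAGGGGG for the core of the CTCF motif, CAGCTG for an E-box and AGATAA for the blood factors of the Gata family.
Hapln3, chr7:79131019-79131268, minus strand: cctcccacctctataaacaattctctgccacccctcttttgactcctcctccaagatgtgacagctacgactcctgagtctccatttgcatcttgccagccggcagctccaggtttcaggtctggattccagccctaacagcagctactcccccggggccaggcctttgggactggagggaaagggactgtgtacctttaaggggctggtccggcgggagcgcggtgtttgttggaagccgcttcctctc
1700011C11Rik, chr7:71960925-71961174, plus strand: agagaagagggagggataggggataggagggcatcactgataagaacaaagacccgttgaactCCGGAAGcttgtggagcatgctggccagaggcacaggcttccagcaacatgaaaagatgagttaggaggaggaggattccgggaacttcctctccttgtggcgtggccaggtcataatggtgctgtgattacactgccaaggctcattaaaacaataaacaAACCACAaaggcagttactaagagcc
Naip5, chr13:100247337-100247586, minus strand: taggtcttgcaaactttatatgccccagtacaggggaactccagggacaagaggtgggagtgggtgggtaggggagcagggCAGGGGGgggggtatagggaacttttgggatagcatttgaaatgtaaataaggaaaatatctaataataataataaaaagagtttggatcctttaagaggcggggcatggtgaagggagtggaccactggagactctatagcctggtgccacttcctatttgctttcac
Idh1, chr1:65179143-65179392, minus strand: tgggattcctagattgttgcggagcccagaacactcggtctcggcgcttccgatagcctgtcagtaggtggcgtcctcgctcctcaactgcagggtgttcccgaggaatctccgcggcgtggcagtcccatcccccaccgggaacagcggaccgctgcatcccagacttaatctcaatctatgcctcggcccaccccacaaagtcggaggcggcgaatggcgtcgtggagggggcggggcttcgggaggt
Idh2, chr7:80115351-80115600, minus strand: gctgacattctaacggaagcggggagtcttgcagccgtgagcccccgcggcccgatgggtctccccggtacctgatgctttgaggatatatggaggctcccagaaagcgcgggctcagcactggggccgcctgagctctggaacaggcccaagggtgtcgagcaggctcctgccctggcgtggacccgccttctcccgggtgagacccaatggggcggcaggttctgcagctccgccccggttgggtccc
The called windows held 8 (Hapln3), 4 (1700011C11Rik) and 1 (Naip5) CpG, the dinucleotide that DNA methyltransferases and Tet enzymes act on, beside a median of 6 over 32851 windows. The Idh1 and Idh2 windows held 22 and 17. The 1700011C11Rik window had an ETS match and a RUNX match, in the letters AACCACA of the other strand, and the Naip5 window had a CTCF core match. Those letters occur in 6.91%, 4.4% and 5.84% of all windows of this length. Gata, AP-1, CEBP and E-box letters, found in 9.99%, 4.46%, 1.69% and 13% of windows, were in none of the 5.

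Of the 51 called peaks, the largest difference lay on chromosome 7. A peak 36783 bp outside Otud7a, a deubiquitinase gene, at chr7:63802730-63803300, was nearly closed in Idh1 R132H and open in Idh2 R140Q. Idh1 R132H libraries held 0.319, 0.399, 0.158 and 0.362 CPM, and Idh2 R140Q libraries 10.5, 11.1, 11.1 and 13.2 CPM. The groups were far apart, with 28 counts in all against 967, a ratio per total count of 38.1 (95% exact interval 26.2 to 57.7, counting error only). The fitted log2 difference was -5.22, with an edgeR adjusted p of 6.45e-23. WT held 0.37 ± 0.131 CPM and Tet2-/- 0.203 ± 0.0675, as low as Idh1 R132H, while the other Idh2 genotype, R172K, held 7.37 ± 1.49 (SD, n = 4 each). This peak was thus open in the libraries of both Idh2 alleles and near closed in those of the other 3 genotypes.

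The Fam169b and Gm44812 peaks of chromosome 7 had the same shape. At chr7:68516546-68517002, 153685 bp from Fam169b, Idh1 R132H libraries held 0.0709, 0.0569, 0.118 and 0.0906 CPM and Idh2 R140Q libraries 2.72, 2.44, 3.09 and 2.12. No library of one genotype reached the other, and 8 counts stood against 222 (ratio 30.6, interval 15.3 to 71.8; log2 difference -4.83, edgeR adjusted p 4.64e-11). Idh2 R172K was at 1.77 ± 0.297 CPM there and WT at 0.168 ± 0.155 (SD, n = 4 each). At chr7:70946200-70946585, named by the predicted gene Gm44812, the means were 0.24 ± 0.162 and 2.41 ± 0.0842 CPM (log2 difference -3.26), and 1 Idh1 R132H library had 0 counts. A second Gm44812 peak (-2.15) and a peak 95075 bp from Arrdc4, an arrestin-domain gene (-2.49), were also lower in Idh1 R132H. So was an intronic Otud7a peak at chr7:63516034-63516615 (-1.63). Of the 11 lower peaks of the chromosome (0.151%), the remaining 5 were named by Ttc23 (-1.03), Abhd2, a serine hydrolase (-1.19), Hapln3 (-0.70), Otud7a at chr7:63816034-63817157 (-0.86) and Prcp (-1.10). Idh2 R172K did not lie with Idh2 R140Q at all of these: it held 0.485 CPM against 1.45 at Arrdc4, 1.93 against 6.89 at Ttc23 and 0.918 against 2.76 at Abhd2. At Prcp the highest of the 5 genotypes was Tet2-/-, at 4.33 ± 0.3 CPM (SD, n = 4).

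The Hapln3 promoter peak, chr7:79129984-79131922, lies 0.976 Mb from Idh2 and covers the Hapln3 window shown above. Hapln3 encodes a link protein that ties hyaluronan to proteoglycans. Idh1 R132H libraries held 5.57, 6.61, 6.42 and 7.16 CPM and Idh2 R140Q libraries 10.6, 10.2, 10.1 and 10.6. The 4 Idh2 R140Q libraries all lay above the 4 Idh1 R132H libraries, and WT, at 7 ± 0.677 CPM (SD, n = 4), lay beside Idh1 R132H. The log2 difference was -0.70 (edgeR adjusted p 0.000132).

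On chromosome 7, 7 peaks (0.0959%) were higher in Idh1 R132H. The one with the smallest p was an intronic peak of Akap13, an anchor protein for protein kinase A, at chr7:75699643-75700344. Idh1 R132H libraries held 12.8, 10.1, 12.8 and 12 CPM and Idh2 R140Q libraries 6.7, 6.3, 7.29 and 7.11. The groups did not overlap (log2 difference 0.81, edgeR adjusted p 8.02e-07), and Idh2 R172K, at 6.17 ± 0.459 CPM, was close to Idh2 R140Q while WT was at 12.7 ± 0.973 (SD, n = 4 each). A second Akap13 peak (0.61), a peak 25631 bp from Homer2, a synaptic scaffold gene (1.28), and a peak in Rlbp1, a retinaldehyde-binding protein (0.94), went the same way. So did peaks named by Chsy1, a chondroitin synthase (0.48), Otud7a (0.80) and Mctp2 (0.67), which lay 5515, 55968 and 116942 bp outside the genes. The Mctp2-named peak, chr7:71960505-71961265, covers the 1700011C11Rik window shown above. There Idh2 R172K did not side with Idh2 R140Q: its 24.7 ± 2.1 CPM lay above the 12 ± 0.855 of Idh2 R140Q and the 19.1 ± 3.31 of Idh1 R132H (SD, n = 4 each).

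**Figure D1:**
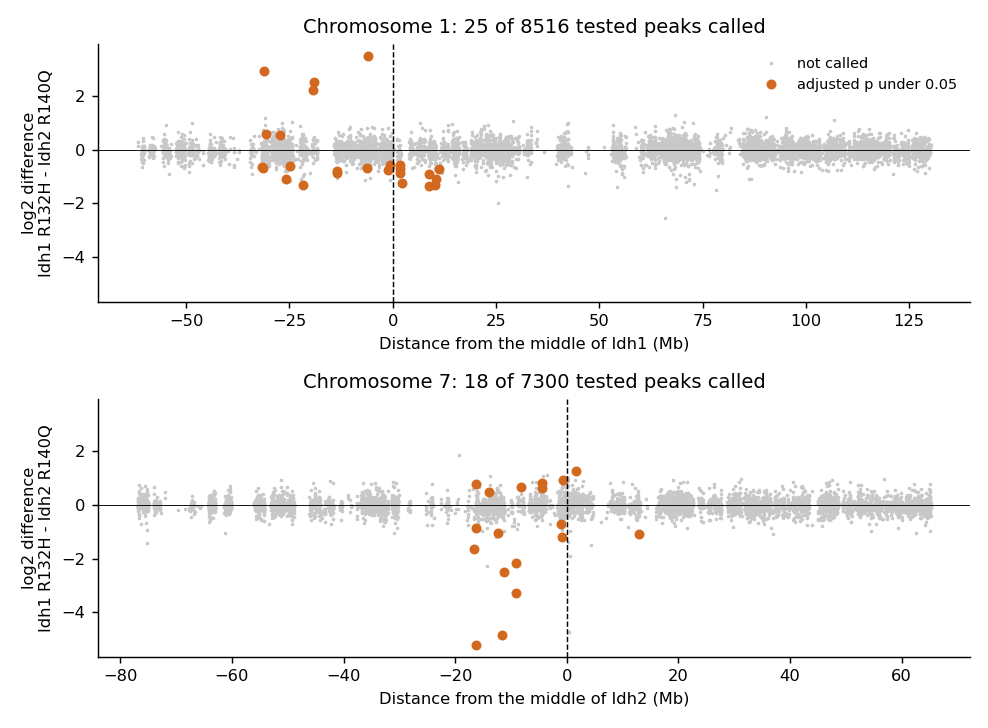
Log2 difference (Idh1 R132H minus Idh2 R140Q) of every tested peak against its distance in Mb from the middle of Idh1 (chromosome 1, upper) or Idh2 (chromosome 7, lower). Orange points are the 25 and 18 called peaks, which lie on both sides of the targeted gene, on chromosome 7 mostly before it.

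Below, a stretch runs from the first call of a chromosome to the last. The calls of each targeted chromosome lay on both sides of the gene. Those of chromosome 7 spanned 63.5 to 93 Mb around Idh2 (80.1 Mb), 16 before the gene and 2 after it. That stretch held 1514 tested peaks, of which 1.19% were called and 13.9% had an unadjusted p under 0.05, against 0 calls and 5.91% among the 5786 peaks outside. Those of chromosome 1 spanned 33.5 to 76.4 Mb around Idh1 (65.2 Mb), 16 before and 9 after. There 1.17% of 2131 peaks were called and 12.6% had an unadjusted p under 0.05, against 0 calls and 7.44% among 6385 peaks outside. Each stretch was drawn by its calls, so the 0 outside is part of its definition. The calls are among the peaks of the stretch, so the higher shares inside are not separate support. The nearest calls lay 0.724 Mb from Idh1 and 0.73 Mb from Idh2. From 0 to 10 Mb and from 10 to 20 Mb before Idh2, 8 of 486 and 8 of 423 tested peaks were called. Over the same distances after Idh2, 1 of 525 and 1 of 514 were called. The last call of chromosome 7, named by Prcp, was lost in 7 of 19 settings.

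On chromosome 1, Idh1 R132H was the genotype that stood apart. A peak in Dst, which encodes the cytoskeletal linker dystonin, at chr1:33925330-33925745, held 2.37, 1.31, 2.96 and 1.63 CPM in Idh1 R132H and 0.318, 0.297, 0.2 and 0.252 in Idh2 R140Q. It was open in Idh1 R132H and near closed in the other 4 genotypes (log2 difference 2.94, edgeR adjusted p 3.08e-06). In all, 6 peaks were higher (0.0705%). The others described here were named by Dnah7b, a dynein of cilia (2.51), Slc40a1, the iron exporter ferroportin (2.22), and the testis genes Prss39 (0.60) and Tsga10 (0.53). At the Dnah7b peak Idh2 R172K held 1.29 ± 0.317 CPM, near the 1.34 ± 0.577 of Idh1 R132H and above the 0.251 ± 0.097 of Idh2 R140Q (SD, n = 4 each).

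The 19 lower peaks of chromosome 1 (0.223%) had smaller differences than Dst, with log2 differences from -0.55 to -1.34. The one with the smallest p was an intronic peak of Tns1, the focal adhesion protein tensin, at chr1:74055519-74056164. Idh1 R132H libraries held 6.03, 6.21, 7.68 and 6.57 CPM and Idh2 R140Q libraries 12.4, 12, 12.3 and 12.6. The groups did not overlap (log2 difference -0.89, edgeR adjusted p 1.31e-07), and WT, Idh2 R172K and Tet2-/- lay at 10.9 ± 1.03, 12.8 ± 1.35 and 12.1 ± 1.02 CPM (SD, n = 4 each), all above Idh1 R132H. Near Lancl1, a glutathione-binding protein, at chr1:66987493-66988279, Idh1 R132H libraries held 9.18, 8.14, 8 and 7.43 CPM and Idh2 R140Q libraries 15, 12.2, 14.6 and 12.6 (log2 difference -0.74, edgeR adjusted p 3.50e-05). Idh2 R172K was lower than both there, at 4.63 ± 1.02 CPM (SD, n = 4).

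Further lower peaks were named by Slc4a3, an anion exchanger (-1.08), Cps1, the first enzyme of the urea cycle (-1.26), and Myl1, a muscle myosin light chain (-0.55). These 3 peaks lay 6265, 166870 and 28310 bp outside the genes. Others were named by Bend6 (-0.67, a promoter peak), Prim2, a primase subunit (-0.66), Gm28802 (-0.67) and Klf7, a Krüppel-like factor (-0.74). A further 8 lower peaks carried the names Acadl, Npas2, Tns1, Il1rl1, Dnpep, Creb1, Nck2 and Slc4a3, with log2 differences from -0.58 (Creb1) to -1.34 (Tns1). Il1rl1 encodes the receptor of interleukin 33 and Npas2 a clock transcription factor. At the Nck2 peak the libraries overlapped, and Idh2 R140Q replicate 4 held 0.757 CPM against 0.603 to 0.77 in Idh1 R132H. Several peaks share a name (Otud7a, Akap13, Gm44812, Tns1, Slc4a3), and a name marks the nearest protein-coding gene and not a gene shown to be controlled.

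**Figure D2:**
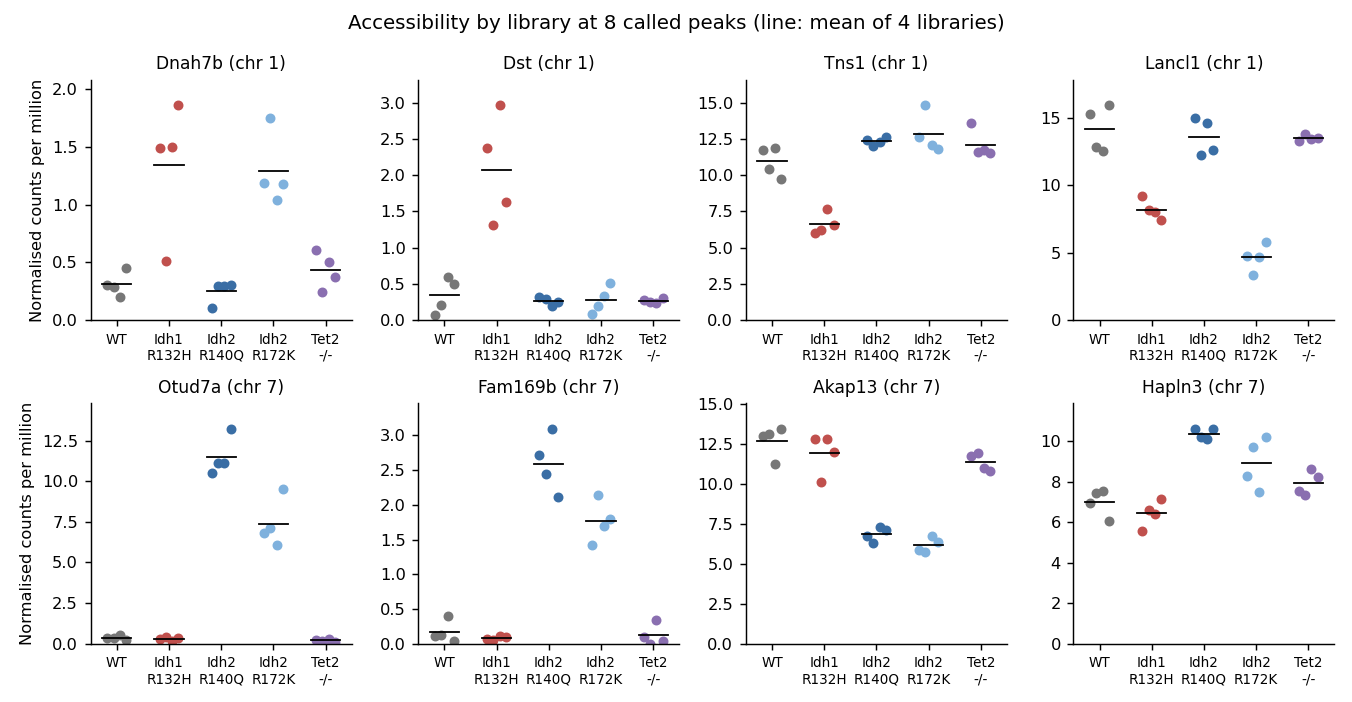
CPM (TMM-scaled) in each of the 20 libraries at 4 called peaks of chromosome 1 (upper) and 4 of chromosome 7 (lower), with points for libraries and lines for means of 4. Idh1 R132H stands apart from WT and Idh2 R140Q in the upper row, with Idh2 R172K near it at Dnah7b and lower still at Lancl1, and Idh2 R140Q in the lower row, with Idh2 R172K near it at Otud7a, Fam169b and Akap13.

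Levels against WT split by chromosome. At all 25 called peaks of chromosome 1 the WT mean lay on the Idh2 R140Q side of the midpoint, on the log2(CPM + 0.1) scale. Idh1 R132H differed from WT by edgeR at 20 of these and Idh2 R140Q at 0. At all 18 called peaks of chromosome 7 the WT mean lay on the Idh1 R132H side, with Idh2 R140Q different from WT at 16 and Idh1 R132H at 0. Both counts come from comparisons that share the WT libraries; over all peaks Idh1 R132H differed from WT at 34 (0.0274%) and Idh2 R140Q at 19 (0.0153%). Thus at each targeted chromosome the genotype that carries the mutation there departed from WT. Idh2 R172K, which differed from WT at 53% of all peaks, lay on the Idh2 R140Q side at 13 of 18 chromosome 7 peaks and 14 of 25 chromosome 1 peaks. Tet2-/- lay with WT at 23 of 25 and 16 of 18. The mutation and the DNA linked to the targeted allele go together in these groups and cannot be told apart.

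Outside the targeted chromosomes 8 peaks were called, 5 higher (0.00463%) and 3 lower (0.00278%) in Idh1 R132H, and neither genotype was called against WT at any of them. Chromosome 13 held 4, between 95671239 and 101482236. In that stretch 10.6% of 426 tested peaks had an unadjusted p under 0.05, against 5.8% elsewhere on the chromosome. This stretch too was drawn by its calls, which are among the 426 peaks, so the higher share is not separate support. At an intronic peak of Gtf2h2, a subunit of the transcription and repair factor TFIIH, chr13:100490569-100490743, Idh1 R132H libraries held 0.319, 0.512, 0.749 and 0.453 CPM and Idh2 R140Q libraries 0.635, 2.26, 2.7 and 2.82. Idh2 R140Q replicate 1 fell within the Idh1 R132H range, and the other 3 were far above it (log2 difference -1.99, edgeR adjusted p 0.00371). A peak 198727 bp from Pik3r1, the regulatory subunit of PI3 kinase, at chr13:101481832-101482236, held 0.0709, 0.0569, 0.0788 and 0 CPM against 0.247, 1.31, 1.8 and 1.87. Replicate 1 was again the low one of Idh2 R140Q, and 5 counts stood against 102 (ratio 22.5, interval 9.34 to 70.8; log2 difference -4.41, edgeR adjusted p 0.0254). Both calls ended under limma voom (adjusted p 0.46 for Gtf2h2 and 0.538 for Pik3r1) and with the 8 libraries alone, where the Gtf2h2 adjusted p was 0.556 and the Pik3r1 peak did not pass the expression filter. The Pik3r1 call was lost in 11 of 19 settings, among them each omission of an Idh1 R132H library (adjusted p 0.104 to 0.125) and of Idh2 R140Q replicate 3 or 4 (0.0704 and 0.0727).

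At the Naip5 promoter peak, chr13:100246863-100247606, Idh1 R132H libraries held 10.7, 12.6, 10.2 and 12.1 CPM and Idh2 R140Q libraries 9.53, 7.37, 5.04 and 5.95. Naip5 encodes a sensor of bacterial flagellin. Replicate 1 was here the highest of Idh2 R140Q and nearest to Idh1 R132H (log2 difference 0.68, edgeR adjusted p 0.00825). WT, Idh2 R172K and Tet2-/- lay at 10.8 ± 1.06, 11 ± 0.675 and 11.2 ± 0.814 CPM (SD, n = 4 each), beside Idh1 R132H. Naip5 belongs to a cluster of near-identical Naip copies, so the assignment of reads between copies is uncertain. At these 3 peaks Idh2 R140Q replicates 2 to 4 thus lay farther than replicate 1 from the means of the other 4 genotypes. The intronic peak of Iqgap2, a scaffold of the actin skeleton, chr13:95671239-95672108, held 4.82, 5.35, 6.11 and 5.26 CPM against 3.14, 4.04, 3.09 and 2.07 (log2 difference 0.81, edgeR adjusted p 0.00373), with no overlap and no such split. Idh2 R172K and Tet2-/- were lower still than WT there, at 1.01 ± 0.201 and 2.2 ± 0.16 CPM against 4.71 ± 0.747 (SD, n = 4 each).

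**Figure D3:**
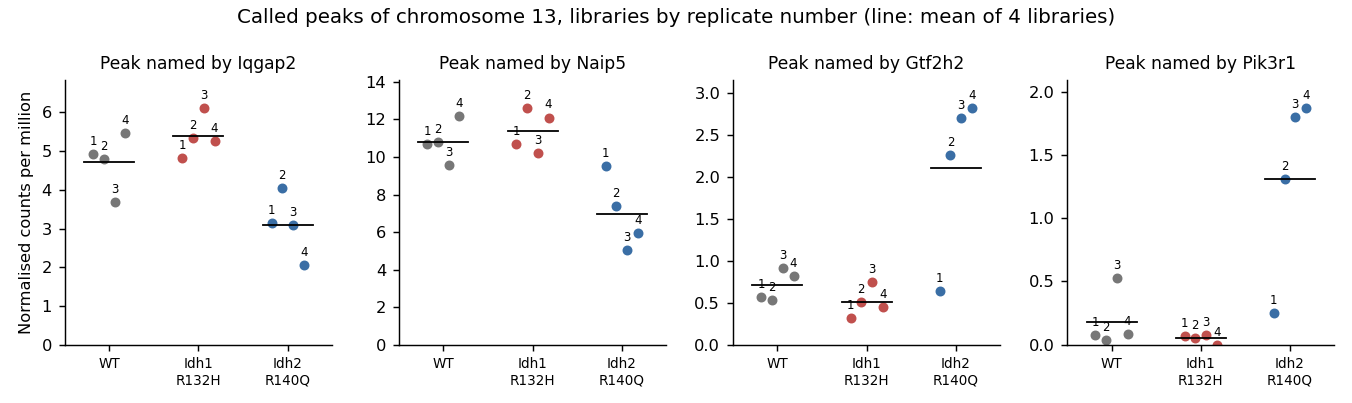
CPM (TMM-scaled) at the 4 called peaks of chromosome 13 in WT, Idh1 R132H and Idh2 R140Q libraries, with replicate numbers beside the points and means of 4 as lines. Idh2 R140Q replicate 1 lies with the other genotypes, or nearest to them, at Naip5, Gtf2h2 and Pik3r1, and not at Iqgap2.

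The other 4 calls were single peaks. In an intron of Slc24a1, a sodium, calcium and potassium exchanger, chr9:64932099-64932640, Idh1 R132H held 4.06 ± 0.235 CPM and Idh2 R140Q 2.3 ± 0.416 (SD, n = 4 each), with libraries from 3.74 to 4.26 and from 2.01 to 2.89 (log2 difference 0.83, edgeR adjusted p 0.00902). Near Esf1, a nucleolar protein gene, chr2:140097080-140097627, the levels were 4.24 ± 0.662 and 2.48 ± 0.291 CPM (0.78, edgeR adjusted p 0.0273). In Ttyh3, a chloride channel gene, chr5:140644822-140645105, they were 8.23 ± 0.359 and 5.48 ± 0.718 (0.58, edgeR adjusted p 0.0471). Near Ifnlr1, a subunit of the interferon lambda receptor, chr4:135664676-135665086, they were 1.08 ± 0.0741 and 2.01 ± 0.321 (-0.92, edgeR adjusted p 0.0318). The libraries of the genotypes did not overlap at any of these 4.

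The count outside chromosomes 1 and 7 changed with single libraries. It was 2 without Idh2 R140Q replicate 4, 3 without Idh1 R132H replicate 4, 5 without Idh1 R132H replicate 2 and 444 (0.409% of 108601) without Idh2 R140Q replicate 2. On chromosome 1 the count without that library was 76 (0.889%), 41 higher (0.48%) and 35 lower (0.409%), and on chromosome 7 it was 50 (0.681%), 29 higher (0.395%) and 21 lower (0.286%). When only replicates 2 and 4, in which Xist was high, were compared, 3 peaks were called outside. Replicates 1 and 3 gave 1, and none of these 4 was among the 8. Both comparisons had fewer libraries on each side and took the spread from all 20 libraries. The difference between these comparisons was called at 0 of 123908 peaks, which does not show that the sets are alike. With the replicate number added to the fit, 43 were called outside, the 8 among them. None of the 8 peaks outside was called in all 19 settings tried, whereas 3 of 25 on chromosome 1 (among them Tns1 at chr1:74055519-74056164, Slc4a3 at chr1:75565143-75566250) and 5 of 18 on chromosome 7 (3 Otud7a peaks, Fam169b, Gm44812 at chr7:70946200-70946585) were. No called peak changed direction in any setting.

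**Figure D4:**
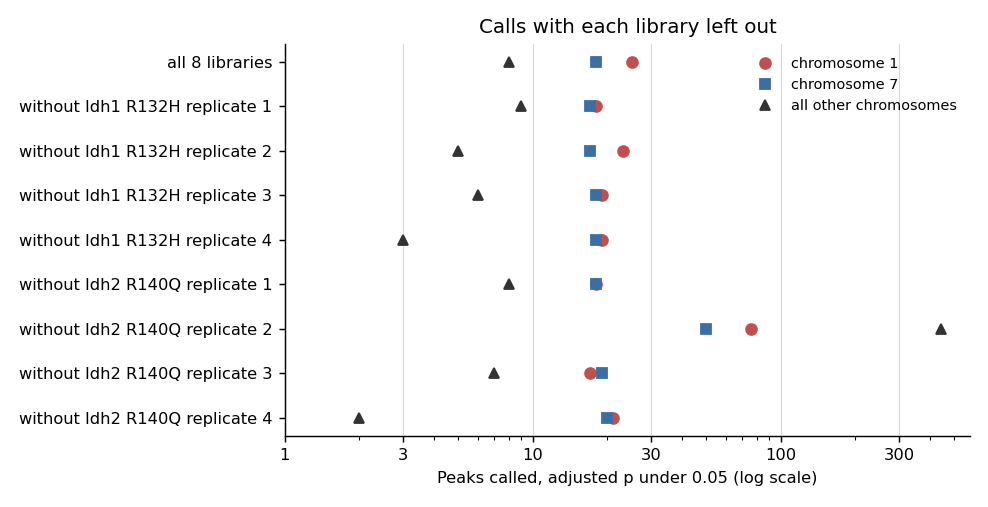
Number of called peaks (log scale) on chromosome 1, chromosome 7 and all other chromosomes with all 8 libraries and with each library left out. Without Idh2 R140Q replicate 2 the counts rise to 76, 50 and 444; the other 7 omissions give 17 to 23, 17 to 20 and 2 to 9.

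Genes of the pathways that 2-hydroxyglutarate touches, and markers of blood cell types, were read from 22 lists with 333 genes. Of 3411 tested peaks named by a list gene, 0 were called by edgeR, 219 had an unadjusted p under 0.05 (6.42%, the same share as among all tested peaks), and DESeq2 and limma voom also called 0. The Snrpn-named peak was called when Idh1 R132H replicate 2 or Idh2 R140Q replicate 4 was left out, and 17 list peaks were called without Idh2 R140Q replicate 2. With the replicate number added to the fit, 2 list peaks were called, named by Klf6 and Snrpn. List medians of the log2 difference ran from -0.07 (B cell) to 0.06 (Myeloid), beside -0.00471 for all peaks. Of 123 peaks of Tet and DNA methylation genes 0 were called (median 0.01), and likewise 0 of 154 of JmjC demethylase genes (0.02), 0 of 202 of other 2-oxoglutarate dioxygenase genes (0.02) and 0 of 152 of hypoxia targets (0.03). The Tet and DNA methylation peak of smallest p was 948 bp from Dnmt3b, a de novo DNA methyltransferase, with 0.845 ± 0.158 and 0.446 ± 0.132 CPM (SD, n = 4 each; edgeR adjusted p 0.601). Stem cell regulators had 0 calls in 625 peaks (median 0.00) and the HoxA cluster with its partners 0 in 164 (-0.02).

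The lowest adjusted p of any list peak was 0.0813 by edgeR, at chr7:60728263-60728554, nearest to the imprinted gene Snrpn and 278231 bp from it. Idh1 R132H libraries held 0.957, 0.456, 0.867 and 1.31 CPM and Idh2 R140Q libraries 0.141, 0.178, 0.2 and 0.504. The groups overlapped through 2 libraries, and the fitted log2 difference was 1.86 with an interval from 1.01 to 2.77. The edgeR adjusted p was 0.0256 without Idh1 R132H replicate 2, 0.0453 without Idh2 R140Q replicate 2 and 0.0212 without Idh2 R140Q replicate 4. It was 0.0204 with the replicate number added to the fit, and 0.0693 to 1 in the alternatives that did not call it. This peak lies on chromosome 7, before the stretch of calls. Among HSC genes the smallest p was at a peak 321042 bp from Runx1, a transcription factor needed for blood formation, with 1.19 ± 0.0859 and 0.665 ± 0.2 CPM (SD, n = 4 each; edgeR adjusted p 0.386).

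Peaks named by list genes were also read without Idh2 R140Q replicate 2, an alternative chosen after its effect on the counts was seen. With 7 libraries, 570 of 124488 tested peaks were called (0.458%), 473 higher (0.38%) and 97 lower (0.0779%) in Idh1 R132H, and all 51 earlier calls were among them. Outside chromosomes 1 and 7 there were 403 higher (0.371%) and 41 lower (0.0378%). Over the lists 17 of 3428 peaks were called (0.496%, close to the 0.458% of all peaks), and all 17 were higher in Idh1 R132H. They were 4 of 214 Myeloid peaks, 4 of 350 of immediate early and NF-kB genes, 2 of 86 Megakaryocyte peaks, both named by Cd9, and 1 each near Sdhb, Tet2, Phf8, Erg, Tfrc, Snrpn and Pmaip1. The Myeloid list had the largest share of peaks with an unadjusted p under 0.05 among the 22 lists, 22.4% of 214, against 11.7% of all tested peaks in that fit, and the highest list median, 0.09.

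The 4 myeloid peaks were named by granule and monocyte genes. Like the other list peaks read here, they were selected by the omission of Idh2 R140Q replicate 2. That favours peaks where this library lies toward Idh1 R132H. At the peak 3536 bp from Mpo, myeloperoxidase, chr11:87789927-87790569, Idh1 R132H libraries held 7.69, 9.17, 8.28 and 8.7 CPM and Idh2 R140Q libraries 5.75, 10.8, 6.34 and 5.4, in replicate order. Replicate 2 of Idh2 R140Q was above every Idh1 R132H library and the other 3 below them (log2 difference 0.53 without replicate 2, edgeR adjusted p 0.0155, and 0.28 with it, adjusted p 0.778). At the Elane promoter, neutrophil elastase, chr10:79886143-79886349, the values were 3.72, 4.56, 3.63 and 5.17 against 2.93, 4.87, 2.35 and 2.52 (0.69, edgeR adjusted p 0.0357 without replicate 2, and 0.44, adjusted p 0.705 with it). At Ly6c2, a monocyte surface antigen, they were 7.98, 10.8, 9.06 and 8.93 against 5.96, 12.3, 6.49 and 6.2. At an intergenic peak 71560 bp from F13a1, a coagulation factor subunit, they were 3.23, 2.85, 2.99 and 3.08 against 2.12, 3.09, 1.45 and 1.61. In all 4 the WT mean lay between 2.8 (F13a1) and 8.3 CPM (Ly6c2), nearer to Idh1 R132H than to the 3 Idh2 R140Q libraries. One WT library, replicate 3, was as low as those 3 at Ly6c2 (6.04 CPM) and F13a1 (2.04 CPM), so single WT pools also reached that level.

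Among the other list peaks, a peak 66174 bp from Myc held 3.2 ± 0.454 CPM in Idh1 R132H (SD, n = 4) and 1.91 ± 0.23 in 3 Idh2 R140Q libraries, with 3.75 in replicate 2. A peak 81609 bp from Tet2 held 7.68 ± 1.22 and 4.91 ± 0.213 CPM, with 8.92 in replicate 2. An intronic peak of Erg, a stem cell transcription factor, held 3.92 ± 0.697 and 2.26 ± 0.216 CPM, with 6.42 in replicate 2. The peak near Klf6, an immediate early zinc finger factor, differed in this: replicate 2 held 1.43 CPM, within 1.2 to 1.5 of the other 3 and below the 1.81 to 3.04 of Idh1 R132H.

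**Figure D5:**
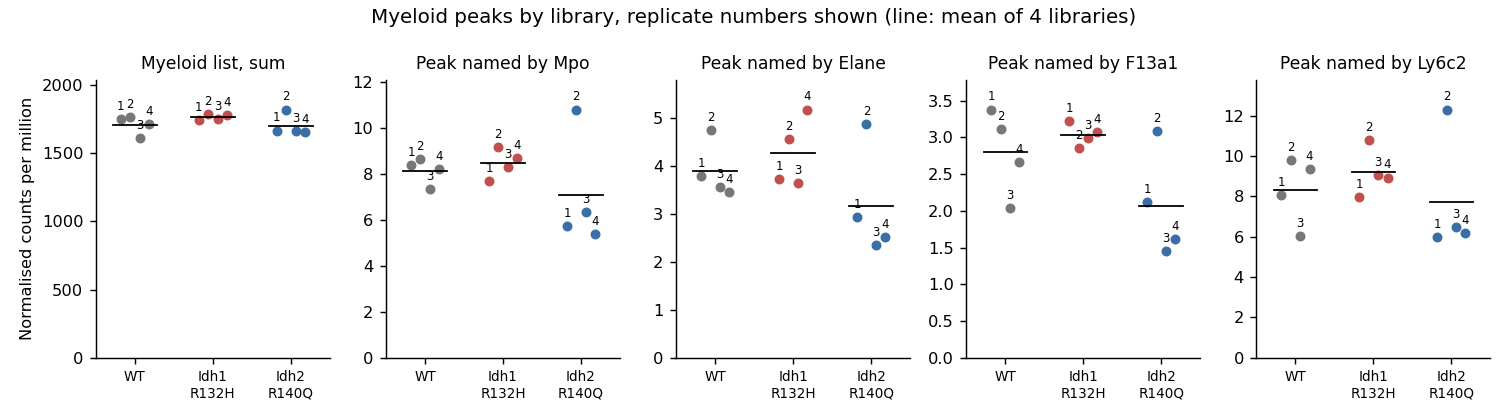
CPM (TMM-scaled) by library in WT, Idh1 R132H and Idh2 R140Q: the sum over all Myeloid list peaks and the 4 Myeloid peaks called without Idh2 R140Q replicate 2, with replicate numbers beside the points and means of 4 as lines. Replicate 2 of Idh2 R140Q lies above replicates 1, 3 and 4 of its genotype in every panel. At the 4 single peaks the selection by its omission favours this.

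Summed over the Myeloid list, Idh1 R132H libraries held 1745 to 1789 CPM, Idh2 R140Q replicates 1, 3 and 4 held 1655 to 1667, and replicate 2 held 1821, with WT from 1609 to 1767. With all libraries the means were 1766 ± 22.3 and 1702 ± 79.9 (SD, n = 4 each; exact permutation p = 0.143, 2-sided, adjusted 0.651 over 19 library-wide quantities). Of the 22 Myeloid genes, 17 had a promoter peak, and none was at 0. Across those 19 quantities, which were shares of annotation classes, sex chromosome sums, sums over the targeted chromosomes and marker list sums, none had an adjusted p under 0.05. The lowest exact permutation p, 0.0286, was that of the Megakaryocyte sum (788 ± 11.3 against 767 ± 7.02 CPM, SD, n = 4 each; adjusted 0.543), and it is the smallest that 4 against 4 can give. Chromosome Y peaks summed to 153 ± 9.46 and 217 ± 54.6 CPM (SD, n = 4 each; exact permutation p = 0.114, adjusted 0.651). Without replicate 2 the Myeloid means were 1766 and 1662 CPM (4 against 3 libraries, exact permutation p = 0.0286, the smallest possible, adjusted 0.326). Replicate 2 was the only Idh2 R140Q library not below every Idh1 R132H library, so the omission itself gave this p. The omission was chosen after its effect on the counts was seen, so the p-values without replicate 2 are descriptive only. The T and NK cell sum went the other way, 478 against 502 CPM with 466 in replicate 2 (exact permutation p = 0.0571, adjusted 0.326). The B cell sum was 212 against 221 CPM (exact permutation p = 0.0857, adjusted 0.326) and the Megakaryocyte sum 788 against 765 (exact permutation p = 0.0571, adjusted 0.326). The part of these sums in the calls made without replicate 2 was not tested.

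Beyond the lists, the first peaks by p outside chromosomes 1 and 7 without replicate 2 were, after Iqgap2, those named by Mxd1, a Myc antagonist, Rubcnl, an autophagy regulator, and Parvg, an actin-binding adhesion protein of blood cells. At the peak 7388 bp from Mxd1, chr6:86639198-86640115, Idh1 R132H libraries held 5.49, 8.09, 5.91 and 6.43 CPM and Idh2 R140Q libraries 3.46, 7.73, 3.49 and 3.28. Replicate 2 lay among the Idh1 R132H libraries and WT, at 5.55 ± 0.772 CPM (SD, n = 4), nearer to them as well (log2 difference 0.91, edgeR adjusted p 0.000382 without replicate 2, and 0.55, adjusted p 0.703 with it). Itgb2, the common beta chain of leukocyte integrins, had an intronic peak with 3.34 ± 0.582 CPM in Idh1 R132H (SD, n = 4), 1.5 ± 0.241 in the 3 Idh2 R140Q libraries and 3.63 in replicate 2, with WT between them at 2.17 ± 0.4 (SD, n = 4). Of the 403 higher peaks outside chromosomes 1 and 7, replicate 2 lay on the Idh1 R132H side in 376, which the omission itself favours, and the WT mean lay there in 375. Only 7.44% of these 403 were promoter peaks, against 12.6% of all tested peaks. With the library left out, calls against WT numbered 94 (0.0755%) for Idh2 R140Q in place of 19, and 38 (0.0305%) for Idh1 R132H in place of 34.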

How the data were processed

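Per the labels, ATAC-seq was done on sorted LSK cells. The authors deposited 1 table of counts per peak for 20 libraries, over 1 common peak set, with an annotation of every peak. Build mm10 is named in the notes on processing, per the labels, beside featureCounts, MACS2, SAMtools, Picard, BWA and Trim Galore. Not given in the sources used here: versions, order, settings, the unit counted (read or fragment) and any transposase shift. The 4 deposited columns whose names join IDH1 with 140Q were taken as Idh2 R140Q, the only genotype with that change.

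The deposited counts (125343 peaks) entered edgeR 4.0.16 (R 4.3.3) with TMM scaling, its expression filter by genotype (1435 peaks removed), and a robust quasi-likelihood fit over all 20 libraries with 1 mean per genotype, 2-sided, Benjamini-Hochberg adjustment over 123908 peaks, threshold 0.05. The common biological coefficient of variation was 7.73%. CPM are counts per 1e6 with TMM-scaled library sizes; log2 differences are Idh1 R132H minus Idh2 R140Q. Intervals came from limma 3.58.1 voom, and DESeq2 1.42.0 was an alternative. The fit was also run on simulated counts. These held no library apart and no replicate structure, so that run does not bear on the changes with single libraries.

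Peaks took the name of the RefSeq protein-coding gene (GRCm38.p6) around their centre or nearest to it. Named by rule were all calls outside chromosomes 1 and 7, the first 10 by p in each direction on chromosomes 1 and 7 among calls without overlap, all peaks of Idh1, Idh2, Vav1 and Tet2, and the first peak by p of each list; other peaks were chosen after their values were seen. Some called peaks are not reported here by name. The genotypes compared and the gene lists were chosen with earlier results of these data known. The lists were IDH and 2-hydroxyglutarate metabolism, TCA cycle and glutamine, Tet and DNA methylation, JmjC demethylases, other 2-oxoglutarate dioxygenases, hypoxia targets, HSC regulators, LSK markers, HoxA and partners, megakaryocyte, erythroid, myeloid, mast cell and basophil, stroma and endothelium, lymphoid priming, T and NK cell, B cell, MHC class II and dendritic cell, imprinted genes, p53 targets, interferon response, and immediate early and NF-kB. Sequence features of all peaks were not analysed here.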

Additional observations from a re-analysis of the deposited data

Results flagged for a closer look

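At the 114 named peaks, 228 groups of 4 libraries were checked for a highest or lowest library set apart from the other 3 by Dixon's criterion at the 95% level, which chance passes in about 1 of 20 groups. It was met 15 times (6.58%), with all values in CPM. At called peaks it was met by Idh2 R140Q replicate 1 near Dnah7b (0.106, the others 0.297 to 0.303) and by Idh1 R132H replicate 3 at Otud7a, chr7:63516034 (1.22, the others 0.854 to 0.906).

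Idh2 R140Q replicate 2 was the highest of its genotype at 3 Tet2 peaks, with 8.92 (the others 4.74 to 5.15), 1.84 (0.529 to 0.605) and 12.4 (7.76 to 7.94). At 2 further Tet2 peaks Idh1 R132H replicate 4 was high with 62.4 and Idh1 R132H replicate 3 low with 2.09. At Vav1 Idh1 R132H replicate 4 was low with 0.77 at one peak and Idh1 R132H replicate 2 high with 29.1 at another.

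At the Dnmt3b peak Idh1 R132H replicate 2 was high with 1.08 and Idh2 R140Q replicate 3 low with 0.25, so both groups had a library apart. At the Vwf peak, named by von Willebrand factor, Idh1 R132H replicate 4 was high with 4.44 and Idh2 R140Q replicate 4 low with 1.36. Idh1 R132H replicate 2 was low at Zfpm1, a GATA1 cofactor gene, with 11.5, and Idh2 R140Q replicate 4 was high near Snrpn with 0.504.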

How the results depend on the processing

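With all 8 libraries 51 peaks were called: 8 outside chromosomes 1 and 7, 25 on chromosome 1 and 18 on chromosome 7. Library-size or cyclic loess scaling, voom, DESeq2, no filter, the 8 libraries alone and omission of Idh2 R172K each gave counts within 1.5 times of these, as did the stricter filter except outside chromosomes 1 and 7 (5 peaks). The peaks themselves turned over: of the 8 outside, 6 were shared by voom, 7 by DESeq2, 7 without Idh2 R172K and 4 by the 8 libraries alone, and 0 by replicates 1 and 3 or 2 and 4 alone. An adjusted p of 0.01 left 4 outside. Replicates 1 and 3 alone gave 1 outside. Replicates 2 and 4 alone gave 12 in all, with 3 outside, 3 on chromosome 1 and 6 on chromosome 7; 4 libraries were compared there. Leaving out 1 library gave 40 to 570 in all, 2 to 444 outside, 17 to 76 on chromosome 1 and 17 to 50 on chromosome 7, each highest value without Idh2 R140Q replicate 2. No result reversed. The cause of these changes was not tested.

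The labels number replicates in both genotypes. Deviations of same-numbered libraries correlated at 0.289, 0.204, 0.0724 and 0.135. Number 3 missed the criterion of 0.1 in every pair, so the main fit has no pairing. This does not show that the numbers share nothing, and the main fit does not model what they share. Replicates 1, 2 and 4 of each genotype correlated best with the same number of the other, and replicate 3 of each with replicate 1. With the replicate block 114 peaks were called, 43 outside (34 higher, 9 lower), 42 on chromosome 1 and 29 on chromosome 7. All 51 calls of the main fit were among them.

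Over the gene lists, 0 peaks were called with all libraries and under the alternatives run, except these. The replicate block gave 2 (Klf6 and Snrpn, the latter with an edgeR adjusted p of 0.0204), and leaving out 1 library gave 0 to 17, with 1 (Snrpn) without Idh1 R132H replicate 2 or Idh2 R140Q replicate 4. These list counts were added after the data were seen.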
